A study of Mus musculus with 18 samples.

Results

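In reprogramming cells with lowered Opa1, libraries that also carried an shRNA against Mtfr1l were higher in contractile and calcium-handling genes and lower in several abundant matrix genes. The comparison set 3 double knockdown libraries (shMtfr1l and shOpa1) against 3 libraries with shOpa1 alone, 6 of the 18 samples of the series. It covers every gene past a filter on low counts, 14162 of the 23420 genes in the table. Of these, 290 were higher and 307 lower in the double knockdown (adjusted p under 0.05, edgeR's quasi-likelihood test with Benjamini-Hochberg adjustment), and 4.22% of the genes tested were called in all.

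Fibroblasts isolated from hearts of newborn CD1 mice were the starting cells, and every library used here received a retrovirus carrying Mef2c, Gata4 and Tbx5 on 1 transcript, the factors that drive fibroblasts towards a cardiomyocyte-like state. The 4 groups were shNT (a non-targeting short hairpin RNA), shMtfr1l, shOpa1 and the double knockdown, with 3 libraries each. The shNT and shMtfr1l libraries give the effect of shMtfr1l with Opa1 intact, where Mtfr1l was lowered further than in the double knockdown. The titles place replicates 1, 2 and 3 of each group on days 7, 8 and 9, while the sample descriptions call them biological replicates. No separate cultures or animals are named, so the p-values measure the spread between these libraries. The genotype field of the Opa1 groups counts up with the replicate, and the groups follow the titles. No sort for reprogrammed cells is named, so each library can mix converted and unconverted cells, and more cells of a type and more RNA per cell cannot be told apart.

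Opa1 is the dynamin-like GTPase that fuses inner mitochondrial membranes and holds cristae together. Mtfr1l is an outer membrane protein of the mitochondrial fission regulator family. Mitochondria of fibroblasts and of cardiomyocytes differ in shape and cristae, and the series asks how loss of Mtfr1l acts on direct cardiac reprogramming. During this conversion cells switch on sarcomere, ion channel and calcium-cycling genes and switch off parts of the fibroblast and matrix programme.

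Values are CPM, that is counts divided by the library total and scaled by the trimmed mean of M values (TMM), and library values are listed for replicates 1, 2 and 3. The compared libraries held 20194675 to 25317069 gene counts. A count of 3, taken as the floor, equals 0.117 to 0.183 CPM over the 12 libraries, and the floor covers counting error only. Fibroblast and cardiomyocyte markers were present in each library: Col1a1 lay between 11620 and 15430 CPM and Tnnt2, cardiac troponin T, between 1254 and 2579. Actn2, the sarcomeric alpha-actinin, was low, at 3.61 to 6.29 CPM in shOpa1 and 6.47 to 8.75 in the double knockdown. Leukocyte markers were also present.

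Both targeted transcripts differed between the groups compared. Mtfr1l (mm10 chromosome 4, 134525555 to 134535387, minus strand) was at 65.8, 71.1 and 71.97 CPM in shOpa1 and at 22.8, 31.1 and 27.8 CPM in the double knockdown. The groups did not overlap, and Mtfr1l was 2.56-fold lower (log2 -1.35 ± 0.11 SE, adjusted p = 8.64e-08). In shMtfr1l against shNT it was 4.38-fold lower, from a mean of 71.85 to 16.4 CPM. The 2 log2 changes differed by 0.78 (interaction test in edgeR, adjusted p = 0.00732, and 0.143 without replicate 2 of every group). Opa1 (chromosome 16, 29579334 to 29654602, plus strand) was at 7.43, 6.85 and 12.6 CPM in shOpa1 and at 20.7, 15.99 and 18.2 in the double knockdown. All double knockdown libraries were thus higher in Opa1 than all shOpa1 libraries, by 2.04-fold (log2 1.03 ± 0.16, adjusted p = 4.88e-04), while shNT held 57.0, 72.6 and 59.7 CPM. The call on Opa1 was lost when replicate 1 of every group was left out (adjusted p = 0.0535). For either transcript alone, the exact two-sided permutation test gave p = 0.1, the smallest that 3 against 3 libraries allow.

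The groups thus differ in 2 ways, less Mtfr1l and more residual Opa1, and the parts of these in any gene's change cannot be told apart. For some of the genes below the mean in shNT, and for fewer the mean in shMtfr1l, is given for that reason. In the plot of both targets by library, the double knockdown sits between the depleted and intact levels for each.

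**Figure D1:**
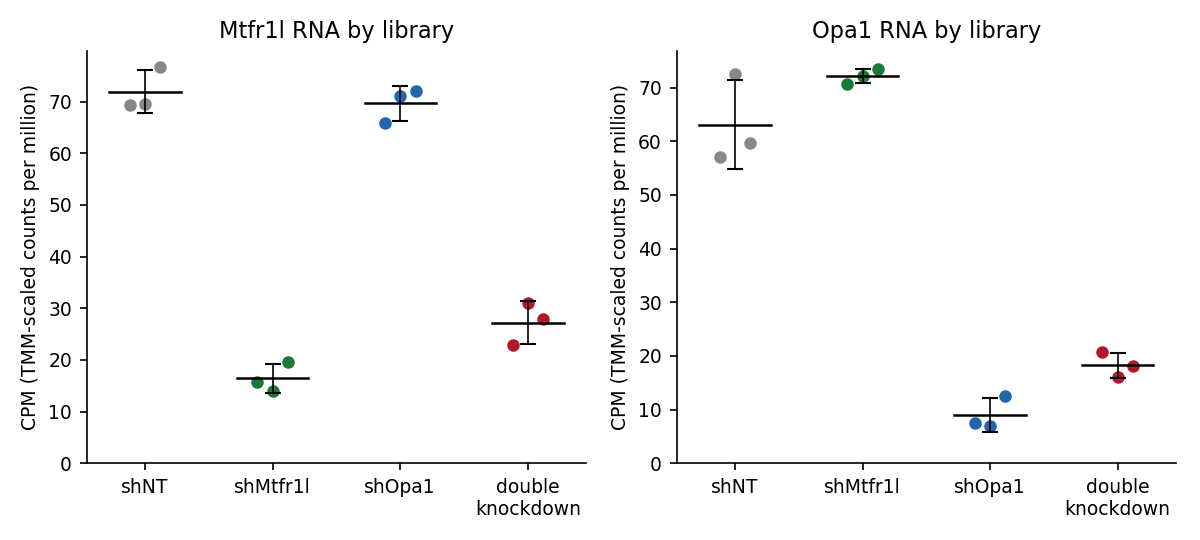
Mtfr1l (left) and Opa1 (right) RNA in CPM for each library of the 4 groups; dots are libraries, horizontal lines are group means and error bars are SDs (n = 3). Opa1 lies between 6.85 and 12.6 CPM in shOpa1 and between 15.99 and 20.7 in the double knockdown.

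Most called changes were small. The median called rise was 1.33-fold and the median called fall 1.254-fold, while 74 genes rose and 28 fell by over 1.5-fold. Over 2-fold, 29 rose and 9 fell. The libraries of the groups did not overlap for 587 of the 597 called genes, and for 21.66% of all genes tested (10.8% with the double knockdown above and 10.8% with it below).

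The effect of shMtfr1l with Opa1 intact offers the nearest comparison, from 6 other libraries of the same table. In that pair of groups, shMtfr1l exceeded shNT for 708 genes (5% of the genes tested) and fell below it for 679 (4.79%), together 9.79%. Of the 597 genes called in the double knockdown against shOpa1, 241 were also called there, which is 40.37% of the first list and 17.38% of the second. The direction was the same for 226 of them, 88 higher and 138 lower in both, and opposite for 15. Of the 226, 144 had the smaller change in the presence of shOpa1, and the 2 effects differed by an interaction test for 20 of them. Over all genes, that test called a difference of effects for 405 (2.86%), of which 101 were among the 597. The 2 comparisons also differ in the depth of the Mtfr1l knockdown and in the change of Opa1. The parts of these in any difference of effects cannot be told apart.

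**Figure D2:**
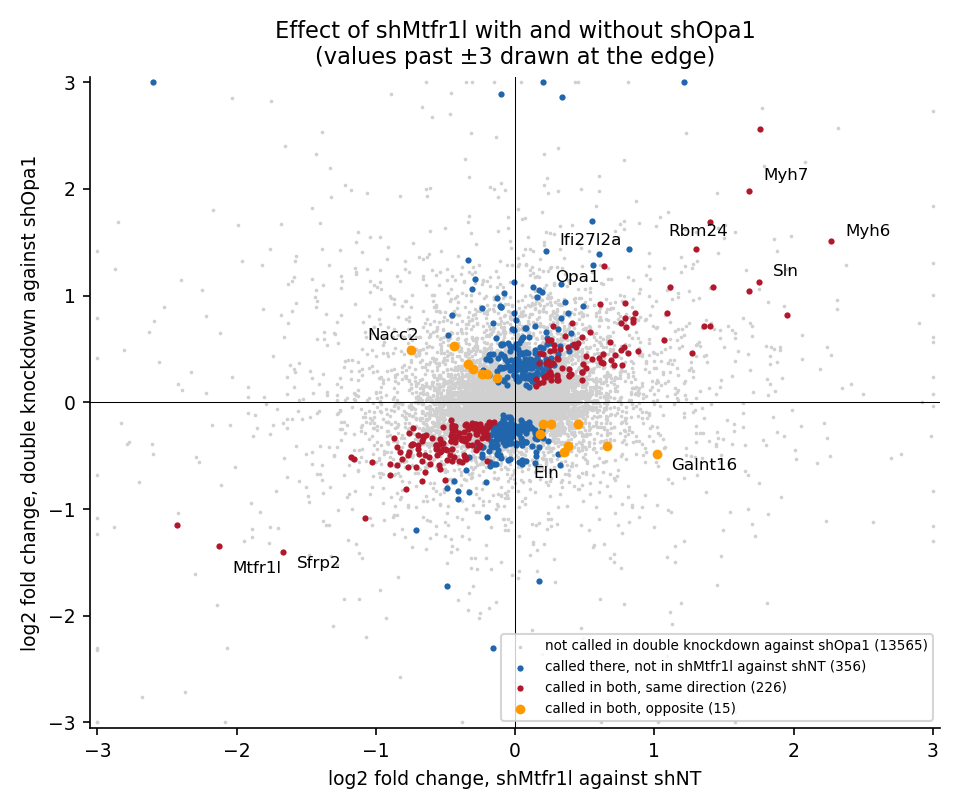
Log2 fold change of each gene tested for shMtfr1l against shNT (horizontal axis) and for the double knockdown against shOpa1 (vertical axis); each dot is a gene, coloured by its calls, and values past ±3 are drawn at the edge. The 226 genes called in the same direction lie in the upper right and lower left, and the 15 opposite calls in the other corners.

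Of the gene lists, the sarcomere list had the highest share of called rises. Of 46 members tested, 16 were higher and none lower, or 34.8% against 2.05% of all genes called higher. The median member stood at log2 0.27, against 4e-04 over all genes. The whole list summed to 6386, 6673 and 6040 CPM in shOpa1 and 7212, 7478 and 7177 in the double knockdown, with no overlap, below the 7640 to 7905 of shNT. The count of called rises fell to 9 without replicate 2 of every group, to 10 without replicate 3 of every group and ran from 12 to 16 without any 1 compared library. Called falls numbered 2 with DESeq2 and with no filter on low counts. They numbered 1 with limma voom, the robust fit and the 6 libraries alone, and 0 or 1 without any 1 compared library.

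Among the motor proteins, Myh6 and Myh7 encode the alpha and beta cardiac myosin heavy chains and lie side by side on chromosome 14. Myh6 (54941921 to 54966607, minus strand) was at 36.8, 28.7 and 25.8 CPM in shOpa1 and at 73.5, 82.6 and 104.2 in the double knockdown, 2.85-fold higher (log2 1.51 ± 0.12, adjusted p = 5.84e-08). Every double knockdown library was above every shOpa1 library and above the shNT mean of 50.8 ± 5.18 CPM, yet below the shMtfr1l mean of 245.3 ± 16.3. Myh7 (54970688 to 54994549, minus strand) was scarce, at 1.63, 1.28 and 0.477 CPM in shOpa1 and at 5.31, 4.09 and 3.97 in the double knockdown, 3.93-fold higher (log2 1.98 ± 0.32, adjusted p = 7.31e-04). This was the largest fold among the genes chosen as largest rises. Myl4, the atrial and embryonic essential light chain, was abundant and moved little, from 882, 893.9 and 802 CPM to 1089, 1152 and 1081 (1.29-fold, adjusted p = 9.9e-05). Its groups did not overlap either, and its double knockdown mean of 1107 CPM stayed under the shNT mean of 1447. Myh2, a myosin heavy chain outside the sarcomere list, fell, from a mean of 8.34 CPM in shOpa1 to 3.98 in the double knockdown (2.09-fold, adjusted p = 0.0328). That call was lost without any 1 of 5 compared libraries and under the replicate block (adjusted p = 0.0519).

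In the thin filament, Actc1, the cardiac alpha-actin, was at 90.9, 90.5 and 70.97 CPM in shOpa1 and 158.1, 177.5 and 199.1 in the double knockdown (2.12-fold, log2 1.08 ± 0.09, adjusted p = 5.84e-08). It was the only called member of the 7 tested thin filament actins and their regulators, while skeletal actin Acta1 differed by log2 0.07 (adjusted p = 0.958). At the thick filament and M-band, Mybpc3, cardiac myosin-binding protein C, went from 10.6, 12.3 and 7.44 CPM to 15.2, 21.1 and 21.4 (1.91-fold, log2 0.93 ± 0.16, adjusted p = 0.00122). Myom2, an M-band protein that links thick filaments, went from 104.1, 114.9 and 92.9 CPM to 140.6, 149.5 and 140.3 (1.38-fold, adjusted p = 5.95e-04). In all 3 genes the groups were apart.

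The other 10 called sarcomere genes, listed so that each called member is named, were Myl7, Tnnt2, Tnni1, Tnnc1, Tpm1, Ttn, Ldb3, Csrp3, Des and Unc45b. Their rises ran from log2 0.15 for Tpm1, an alpha-tropomyosin, to 1.08 for Tnni1, the slow skeletal troponin I. In the Z-disc, which anchors thin filaments, 4 of 14 tested members were higher here, and 12 of 14 were higher in shMtfr1l against shNT. The difference of the 2 effects passed the test for 5 of the 14 Z-disc members, beside 2.86% of all genes tested. These were Csrp3, Synpo2l, Cryab, Des and Ankrd1, all with a lower log2 change in the presence of shOpa1. For Cryab, a small heat shock protein, the log2 change was -0.18 here and 0.15 with Opa1 intact. Synpo2l, an actin-bundling Z-disc protein, showed the widest gap of these, with log2 -0.29 here (adjusted p = 0.0685) and 0.68 with Opa1 intact (difference -0.97 ± 0.13, adjusted p = 1.68e-04). Ankrd1, a stress-responsive titin-binding protein, was at 836.6, 916.2 and 857 CPM in shOpa1 and 816.9, 901.7 and 821.1 in the double knockdown, whose ranges overlap (difference of effects -0.39 ± 0.07, adjusted p = 0.00179). The difference was called for Synpo2l and Ankrd1 in all 24 alternatives, whereas that of Csrp3 was lost without replicate 1 of every group (adjusted p = 0.0644), that of Cryab in 10 alternatives and that of Des in 13, the replicate block among them (adjusted p = 0.0611).

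Promoter sequences are shown for 4 genes, picked from the sarcomere and calcium-handling genes that were called higher in every alternative. Myh7, Myl4, Ryr2, Rbm24 and Eno3 also kept their calls throughout and are not shown. The motifs of the 4 therefore stand for no wider group. They are the 250 bases before the RefSeq start (GRCm38.p6), 5′ to 3′ on the strand of the gene, with motif matches in capitals.
Myh6 (chr14:54966608-54966857, minus strand): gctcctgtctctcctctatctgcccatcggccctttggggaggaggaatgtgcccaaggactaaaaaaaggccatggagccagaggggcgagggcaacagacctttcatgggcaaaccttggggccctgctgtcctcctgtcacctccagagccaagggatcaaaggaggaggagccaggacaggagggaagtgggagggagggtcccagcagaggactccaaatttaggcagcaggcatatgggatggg
Actc1 (chr2:114052876-114053125, minus strand): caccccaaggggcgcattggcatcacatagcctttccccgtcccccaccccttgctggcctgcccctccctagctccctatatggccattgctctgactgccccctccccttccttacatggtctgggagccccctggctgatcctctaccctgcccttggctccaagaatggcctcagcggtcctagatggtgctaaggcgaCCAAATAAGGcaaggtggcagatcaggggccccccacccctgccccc
Mybpc3 (chr2:91117894-91118143, plus strand): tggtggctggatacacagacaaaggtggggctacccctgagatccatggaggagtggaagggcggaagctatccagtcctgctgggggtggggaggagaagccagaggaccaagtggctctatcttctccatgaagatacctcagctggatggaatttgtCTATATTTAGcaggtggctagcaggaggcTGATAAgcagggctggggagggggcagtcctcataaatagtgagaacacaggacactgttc
Gja1 (chr10:56377050-56377299, plus strand): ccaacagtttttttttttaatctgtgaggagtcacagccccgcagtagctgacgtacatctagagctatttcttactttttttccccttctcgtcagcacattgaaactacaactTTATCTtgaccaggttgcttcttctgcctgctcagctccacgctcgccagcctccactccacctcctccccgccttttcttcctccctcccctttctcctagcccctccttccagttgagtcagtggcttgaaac
The search covered both strands for sites of the families of the vector factors and of serum response factor: the MEF2 site, the GATA site (AGATAA or TGATAA), the T-box site (AGGTGT) and the CArG box. Mybpc3 held a MEF2 site 90 to 81 bases and a GATA site 61 to 56 bases before its start, Gja1 a GATA site at 135 to 130, and Actc1 a CArG box at 47 to 38. The RefSeq start of Actc1 lies 64 bases from that of the counting annotation, and the other 3 coincide. A promoter was matched for 10399 of the genes tested (73.4%). Of these, 1.6% held a MEF2 site, 8.92% a GATA site, 9.54% a T-box site and 1.19% a CArG box. Among 23 genes called higher in the 4 cardiac lists (sarcomere, calcium handling and channels, cardiac transcription regulators and other cardiomyocyte genes), 3 held a MEF2 site, 4 a GATA site, 3 a T-box site and 4 a CArG box. These are letter matches, described without a test.

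Calcium handling and ion channels had 6 of 31 tested members higher and none lower (19.4%, median log2 0.32). In the sarcoplasmic reticulum, the calcium store of muscle, Sln, the small inhibitor of the calcium pump, went from 11.3, 16.9 and 14.4 CPM to 28.5, 32.7 and 32.3 (2.2-fold, log2 1.13 ± 0.12, adjusted p = 3.39e-06). Atp2a2, the pump itself, went from 975.9, 944.3 and 843.6 CPM to 1145, 1167 and 1214 (1.28-fold, adjusted p = 6.8e-04), and Ryr2, the release channel, from 88.6, 87.7 and 86.4 to 125.4, 119 and 124.4 (1.4-fold, adjusted p = 0.00248). All 3 were without overlap, and none of these calls was lost in any alternative. Casq2, which buffers calcium in the store, rose 1.2-fold from a mean of 203.2 to 243 CPM (adjusted p = 0.00564, and up to 0.132 without a whole replicate number).

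At the cell surface, Gja1, the gap junction protein connexin 43, was at 67.3, 68.4 and 63.4 CPM in shOpa1 and 102, 108.3 and 104.4 in the double knockdown (1.58-fold, log2 0.66 ± 0.06, adjusted p = 2.35e-07). It lay below the shNT mean of 189.6 ± 9.63 CPM in all 6 libraries. Kcnj5, a subunit of the muscarinic potassium channel, rose 1.3-fold (adjusted p = 0.00108, and 0.0577 when replicate 2 was left out of all groups). Of the 7 tested calcium channel and exchanger genes edgeR called none, and 0 had an unadjusted p under 0.05. Trdn, which ties the release channel to the store, showed log2 0.32 here and 1.16 with Opa1 intact (difference -0.84, adjusted p = 0.00249, and 0.102 without replicate 1 of every group).

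**Figure D3:**
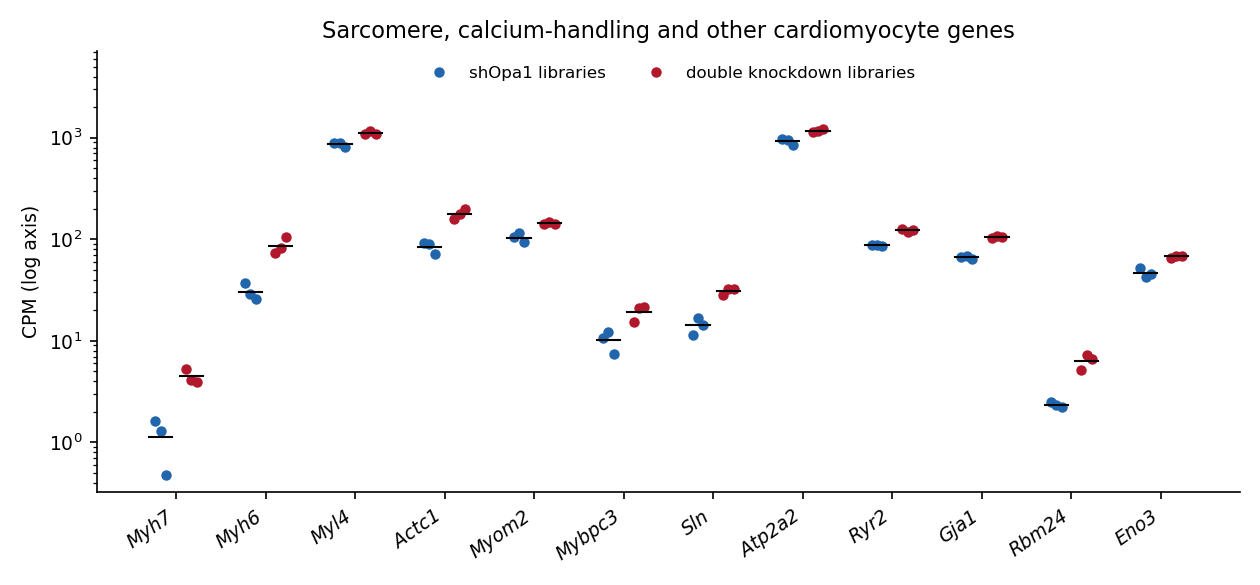
CPM (log axis) of 12 sarcomere, calcium-handling and other cardiomyocyte genes in the 3 shOpa1 and 3 double knockdown libraries; dots are libraries in replicate order and lines are group means. The 12 were picked from the genes called higher whose groups do not overlap, so the separation of the groups is part of the choice.

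Most other cardiomyocyte genes followed the same direction, with 4 of 16 tested members called higher (25%) and none lower. By sign, 14 were positive and 2 negative, down to log2 -0.30. Nppa, a natriuretic peptide gene, went the other way without a call. Its mean was 14.55 CPM in shOpa1 and 11.86 in the double knockdown, with overlapping libraries, against 33.74 in shNT. Rbm24, a muscle splicing regulator, was at 2.48, 2.33 and 2.24 CPM in shOpa1 and 5.14, 7.28 and 6.66 in the double knockdown (2.7-fold, log2 1.44 ± 0.20, adjusted p = 9.18e-05). Its shNT mean was higher than both, at 10.2 ± 1.36 CPM. Eno3, the muscle enolase, went from 51.98, 42.9 and 45.0 CPM to 65.6, 68.4 and 68.9 (1.45-fold, adjusted p = 3.42e-04). Rbm20, the splicing regulator of titin, rose 1.63-fold (adjusted p = 0.00666, and up to 0.0825 without a whole replicate number). Corin, the protease that activates natriuretic peptides, had overlapping groups (12.1, 9.27 and 6.25 against 11.7, 15.1 and 18.9 CPM) and lost its call under the replicate block (adjusted p = 0.0538) and without any 1 of 4 libraries, replicates 2 and 3 of either group.

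Cardiac transcription regulators held 1 call. Among 19 tested, Hopx, a homeodomain-only cofactor, was the sole call (1.88, 2.38 and 2.24 against 2.7, 5.95 and 4.74 CPM, adjusted p = 0.0355). That call was lost under the replicate block (adjusted p = 0.0515) and without any 1 compared library except replicate 1 of the double knockdown. The 3 factors the vector carries were not called: Mef2c differed by log2 0.07, Gata4 by 0.08 and Tbx5 by 0.08. Counts of these genes do not separate vector from endogenous transcripts. Mean levels were 447.3 and 471.9 CPM for Gata4 in shOpa1 and the double knockdown, 268.9 and 282.7 for Mef2c, and 304.9 and 321.9 for Tbx5.

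Matrix genes moved in both directions, with more falls than rises. Of 72 collagen and matrix genes tested, 18 were lower (25%, against 2.17% of all genes called lower) and 6 higher, while the median stood at log2 -0.04. The count of falls ran from 9 to 17 without any 1 compared library and was 6 without replicate 2 of every group. The rises dropped to between 2 and 4 without any 1 compared library and to 0 without replicate 2 of every group. The list as a whole summed to 137100 to 143900 CPM in shOpa1 and 132200 to 134900 in the double knockdown.

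Col3a1, the fibrillar collagen III chain, had the smallest adjusted p of these falls. It was at 9953, 9729 and 9854 CPM in shOpa1 and 7767, 7556 and 7766 in the double knockdown (1.28-fold lower, log2 -0.36 ± 0.03, adjusted p = 9.59e-08), with shNT at a mean of 7255. The chains of collagen I did not follow: Col1a1 differed by log2 0.07 (adjusted p = 0.487) and Col1a2 by 0.04 (adjusted p = 0.679). Eln, the elastic fibre protein, went from 5812, 5470 and 5009 CPM to 3924, 3460 and 3667 (1.47-fold lower, log2 -0.56 ± 0.05, adjusted p = 9.18e-07). Its shNT and shMtfr1l means were close to each other, at 3085 ± 80.6 and 3153 ± 250.6 CPM. The log2 changes with and without shOpa1 differed by the interaction test (difference -0.59, adjusted p = 1.22e-04), and the part of residual Opa1 in this was not tested.

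Among matricellular proteins, which tune how cells read the matrix, Ctgf (CCN2) went from 2766, 3003 and 2682 CPM to 2126, 2245 and 2085 (1.31-fold lower, adjusted p = 3.66e-06). Tnc, tenascin C of remodelling tissue, went from 367.9, 361.7 and 350 CPM to 267.4, 264.8 and 287.2 (1.32-fold lower, adjusted p = 8.06e-04). In the small proteoglycans, Prelp went from 602.5, 618.7 and 589.3 CPM to 480.2, 451.4 and 445.2 (1.32-fold lower, adjusted p = 4.61e-04), and Bgn, biglycan, differed by log2 -0.01 (adjusted p = 0.911). The groups of all 3 called genes were apart. Timp2, an inhibitor of matrix metalloproteinases, fell 1.18-fold (adjusted p = 0.00103, and 0.0585 at most without a whole replicate number).

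Basement membrane genes split evenly, with 4 of 14 tested members lower and 4 higher. The falls were in Col4a1, Col4a2, Lamb2 and Nid1 and the rises in Lamb1, Lamc1, Frem2 and Fras1, named here to account for each call. Log2 changes were -0.20 for Col4a1, a collagen IV chain, and 0.24 for Lamc1, the laminin gamma-1 chain. The enzymes that crosslink and process collagen had 3 falls among 13.

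Fibroblast identity genes had 5 falls and 1 rise among 30 tested (16.7% and 3.33%, median log2 -0.08). Thy1, a surface glycoprotein of fibroblasts, was at 449.3, 471.7 and 426 CPM in shOpa1 and 367.7, 386.4 and 350.8 in the double knockdown (1.22-fold lower, adjusted p = 0.00117), close to the shNT mean of 371.3. Vim, the mesenchymal intermediate filament, rose, from 2133, 2218 and 2100 CPM to 2460, 2582 and 2495 (1.17-fold, adjusted p = 3.42e-04). Both pairs of groups were apart, and both calls were kept in all 25 alternatives. The other falls were in Mfap5, a microfibril protein, Dcn, decorin, Osr1, a mesenchymal transcription factor, and Dpt, dermatopontin, at 1.17-fold to 1.48-fold. Each was lost without at least 1 library: Mfap5 without replicate 3 of the double knockdown or replicate 1 of shOpa1 (adjusted p up to 0.0638), Osr1 without replicate 2 or 3 of the double knockdown (up to 0.074), Dcn without replicate 1 or 2 of the double knockdown or replicate 1 of shOpa1 (up to 0.0732), and Dpt without any of the 6 (up to 0.138). Dpt also lost its call under the replicate block (adjusted p = 0.0616). Pdgfra, Tcf21 and Ddr2, other fibroblast markers, were not called.

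With Opa1 intact, 13 of the 30 fibroblast genes were lower and 2 higher in shMtfr1l than in shNT. The difference between the effects passed the test for 7 of the 30 fibroblast genes, Tcf21, Lum, Gsn, Mfap4, Fbln2, S100a4 and Dpep1. It also passed for 16 of the 72 matrix genes, beside 2.86% of all genes tested. Under the replicate block the differences of Gsn, Dpep1 and, among matrix genes, Bgn were not called (adjusted p = 0.0585, 0.0574 and 0.053). Lox, the collagen-crosslinking lysyl oxidase, had the smallest p of these. It was at 923.9, 940.2 and 958 CPM in shOpa1 and 919.3, 887.4 and 924.9 in the double knockdown, overlapping, whereas shNT held 1714 to 1820 and shMtfr1l 1047 to 1097 (difference 0.69 ± 0.06, adjusted p = 3.31e-07). Fbln2, a fibulin of elastic fibres, changed by log2 -0.47 with Opa1 intact and by -0.09 here (difference 0.38, adjusted p = 1.8e-04). Loxl4, a relative of Lox, differed by 0.66 and Timp1 by 0.69 in the same direction. The difference was called for Lox, Fbln2, Loxl4 and Timp1 in all 24 alternatives.

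**Figure D4:**
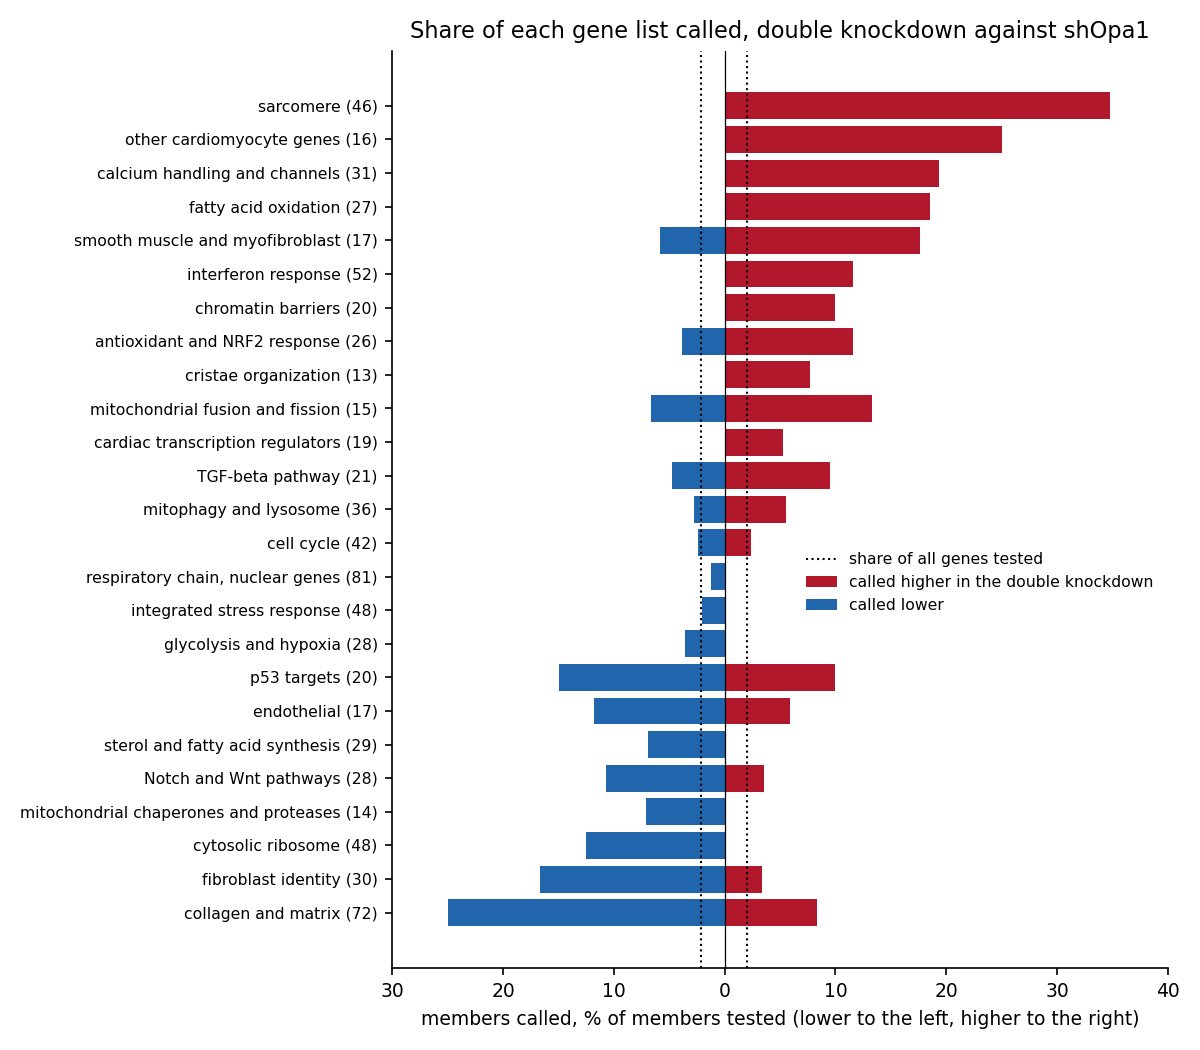
Share of tested members called higher (right) and lower (left) in the double knockdown against shOpa1 for each gene list with a call; numbers of tested members stand in brackets and dotted lines mark the shares over all genes, 2.05% and 2.17%. Sarcomere genes reach 34.8% higher with none lower, and collagen and matrix genes 25% lower with 8.33% higher.

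Genes of mitochondrial structure showed few changes beyond the targets. In the list of fusion and fission genes 15 were tested, and besides Opa1 and Mtfr1l only Mfn2 was called. Mfn2, a mitofusin of the outer membrane, was at 62.5, 54.5 and 50.8 CPM in shOpa1 and 78.3, 72.5 and 73.5 in the double knockdown (1.34-fold higher, adjusted p = 0.00573), without overlap and below the shNT mean of 101.7. The call was lost without replicate 2 of every group (adjusted p = 0.0967). Mfn1, its paralogue, differed by log2 -0.01, and Dnm1l, the fission GTPase, by 0.06. Mtfr1 and Mtfr2, the relatives of Mtfr1l, differed by -0.17 (adjusted p = 0.342) and 0.31 (adjusted p = 0.706). Among 13 cristae genes, Samm50, a subunit of the outer membrane sorting machinery, was called 1.2-fold higher (adjusted p = 0.0466). That call was lost without any 1 of the 6 libraries and under the replicate block (adjusted p = 0.0598). None of the 6 tested subunits of MICOS, the complex that shapes cristae, was called by edgeR (1 at an unadjusted p under 0.05), and Immt, its core subunit, differed by 0.09.

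Energy metabolism was largely without calls, fatty acid oxidation apart. Of 81 nuclear genes of the respiratory chain 1 was called, Atp5d, a subunit of ATP synthase, at 1.19-fold lower (adjusted p = 0.0142). It lost the call without replicates 1 or 3 of the double knockdown or replicate 1 of shOpa1 (up to 0.101). No gene was called by edgeR among 30 genes for pyruvate entry and the tricarboxylic acid cycle, 15 of mitochondrial biogenesis or 50 of the mitochondrial ribosome, where 7, 0 and 2 had an unadjusted p under 0.05. DESeq2 called 1 gene of the first list and 0 of the others, and limma voom 0 of all 3. Of 27 fatty acid oxidation genes, 5 rose (18.5%) and none fell. Acaa2, the mitochondrial thiolase, went from 40.5, 39.9 and 35.01 CPM to 56.4, 56.5 and 64.7 (1.54-fold, log2 0.62 ± 0.09, adjusted p = 1.24e-04), without overlap and in every alternative. The other 4, the carnitine transferase Cpt1a, the isomerase Eci2 and the dehydrogenases Acadm and Acadl, rose 1.2-fold to 1.3-fold. Cpt1a lost its call without replicate 3 of the double knockdown (0.0556) and Eci2 without replicate 1 of the double knockdown or replicate 2 of shOpa1 (up to 0.0538). Acadm lost it without any 1 of the 6 libraries and Acadl without any but replicate 1 of shOpa1, and under the replicate block their adjusted p were 0.0702 and 0.0576.

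Leukocyte genes were higher in the double knockdown without passing the test. All 19 tested members had a positive log2 change (median 0.76) and none was called by edgeR, although 10 had an unadjusted p under 0.05 and 12 were called without replicate 3 of every group. Summed, the list stood at 711.1, 413.9 and 1125 CPM in shOpa1 and 1213, 1069 and 1343 in the double knockdown, so that replicate 3 of shOpa1 lay above replicate 2 of the double knockdown. The sums were 454.3 to 715.8 CPM in shNT and 255 to 919.5 in shMtfr1l, and no member was at 0 in all 12 libraries. Csf1r, the macrophage growth factor receptor, was at 45.7, 28.3 and 79.5 CPM against 89.2, 81.5 and 105.7, without overlap (log2 0.85, adjusted p = 0.172). Ptprc, the pan-leukocyte antigen CD45, was at 15.2, 6.42 and 25.2 against 29.6, 22.3 and 28.5, with overlap (adjusted p = 0.333). Without replicate 3 of shOpa1 the median rose to 1.2 and 5 members were called, and without replicate 2 of shOpa1 it fell to 0.45 with none called. The count also depended on the method: 8 with the 6 libraries alone, 9 with limma voom, 16 with no filter on low counts, and 0 with DESeq2.

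Itgb2, the leukocyte integrin beta-2 chain, and Ctse, cathepsin E, stood among the 12 largest called rises. Itgb2 was at 14.7, 7.47 and 27.6 CPM in shOpa1 and 36.9, 31.7 and 40.6 in the double knockdown (2.2-fold, adjusted p = 0.0473), in the same order over shOpa1 libraries as the leukocyte list. Its call was lost without any 1 compared library except replicate 3 of shOpa1 (adjusted p up to 0.201), under the replicate block (0.0933) and with DESeq2. Ctse went from 2.38, 0.951 and 3.2 CPM to 6.47, 7.16 and 7.61 (3.25-fold, adjusted p = 0.0218), and its call was lost without the same 5 libraries (adjusted p up to 0.106). The part of leukocyte content in these and other changes was not tested.

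**Figure D5:**
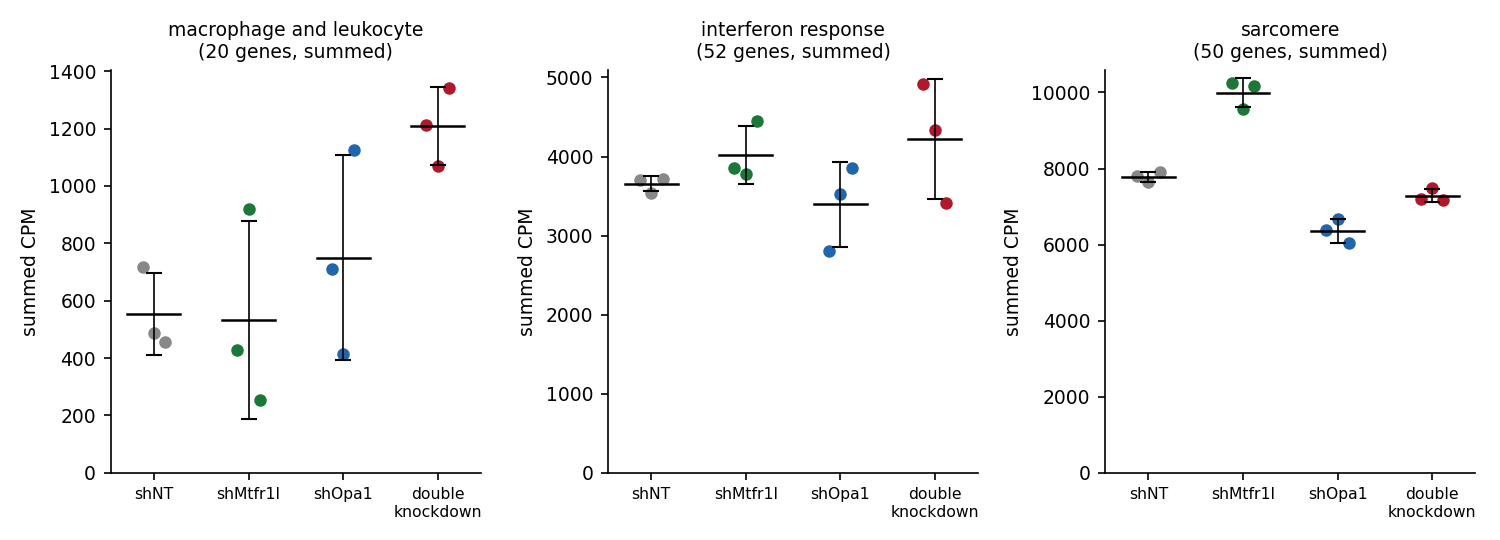
Summed CPM per library of the leukocyte (20 genes), interferon (52) and sarcomere (50) lists in the 4 groups; dots are libraries, horizontal lines means and error bars SDs (n = 3). Sarcomere sums separate shOpa1 (6040 to 6673) from the double knockdown (7177 to 7478), whereas the leukocyte and interferon sums overlap between these groups.

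Interferon response genes moved with single libraries. Of 52 tested, 6 were higher and none lower (11.5%, median log2 0.32). Summed, they stood at 2806, 3521 and 3857 CPM in shOpa1 and 4918, 4336 and 3406 in the double knockdown, overlapping, with replicate 3 of the double knockdown below 2 of the 3 shOpa1 libraries. Called members numbered 1 without replicate 1 of either group, 12 without replicate 3 of the double knockdown, 14 without replicate 3 of shOpa1 and 24 without replicate 3 of every group. Ifi27l2a, an interferon-induced mitochondrial protein, kept its call throughout: 4.26, 4.33 and 7.11 CPM against 14.7, 15.4 and 11.9 (2.67-fold, log2 1.42 ± 0.20, adjusted p = 2.01e-04). The other 5, Bst2, Lgals3bp and the antigen presentation genes H2-K1, H2-T23 and B2m, rose 1.19-fold to 1.57-fold. They overlapped between the groups, H2-T23 excepted, and each lost its call without replicate 1 of either group. H2-T23 and B2m also lost it under the replicate block (adjusted p = 0.0747 and 0.0929), and with DESeq2 Bst2, Lgals3bp, H2-K1 and B2m were not called.

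In some of the remaining cell type and pathway lists there was no call. No member was called among 17 epicardial and mesothelial, 9 Schwann and 37 inflammation genes by edgeR, where 3, 0 and 5 had an unadjusted p under 0.05. DESeq2 called 1, 0 and 0 of them and limma voom 0, 0 and 1. For inflammation, the effects with and without shOpa1 differed for 7 of the 37 genes, beside 2.86% of all genes tested. These were Saa3, C3, C1ra, Cxcl16, Vcam1, Icam1 and Relb. Vcam1, an adhesion molecule, was at 188.8, 181.2 and 194.9 CPM in shOpa1 and 190.5, 197.2 and 213.4 in the double knockdown, while with Opa1 intact it was 271.7 to 284.7 in shNT and 168.1 to 182.4 in shMtfr1l (difference 0.76 ± 0.08, adjusted p = 9.83e-06). Complement C3 showed log2 -0.19 here and -1.01 there (difference 0.81, adjusted p = 0.00195).

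Of 17 endothelial genes, Kdr rose and Flt1 and Tek fell. These encode receptors for vascular growth factors and angiopoietin, and Kdr went from 5.45, 2.43 and 4.15 CPM to 9.29, 8.25 and 7.84 (2.11-fold, adjusted p = 0.0215). All 3 calls were lost without at least 3 of the compared libraries, with adjusted p up to 0.12 for Kdr, 0.0986 for Flt1 and 0.159 for Tek. Pecam1, a defining endothelial marker, stayed between 3.00 and 5.20 CPM in these 6 libraries. Cytosolic ribosome genes had 6 falls among 48 (12.5%), 43 of 48 with a negative sign and a median of log2 -0.14, and between 0 and 5 falls without any 1 compared library. The integrated stress response had 1 fall among 48, the cell cycle 1 rise and 1 fall among 42, sterol and fatty acid synthesis 2 falls among 29, and glycolysis and hypoxia 1 fall among 28. Without any 1 compared library, 0 of the cell cycle fall and 0 or 1 of the sterol and fatty acid falls remained called. The block left 0 of the sterol and fatty acid falls and 0 of the cell cycle rise.

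Other lists held larger shares of calls. Of 20 p53 targets, 2 rose (10%) and 3 fell (15%). Zmat3, an RNA-binding target of p53, was at 150, 170.4 and 157 CPM in shOpa1 and 123.3, 122.3 and 123.2 in the double knockdown (1.295-fold lower, adjusted p = 8.81e-04, and up to 0.0608 without a whole replicate number). Cdkn1a, the cell cycle inhibitor p21, and Ei24 also fell (log2 -0.17 and -0.26), while Sesn1, a sestrin, and Perp, a junction protein, rose (0.41 and 0.89). These 4 calls were lost without at least 2 of the compared libraries, and that of Perp under the replicate block (adjusted p = 0.054).

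Of 17 smooth muscle and myofibroblast genes, Mylk, Des and Synpo2 rose (17.6%) and Notch3 fell (5.88%). Des is also counted in the sarcomere list. The median was log2 -0.03, and 9 of the 17 had a negative sign. Acta2, smooth muscle actin, was at 2501, 2513 and 2416 CPM in shOpa1 and 2301, 2280 and 2297 in the double knockdown. Mean Cnn1, a calponin, went from 20.1 to 17.1 CPM and mean Myh11 from 21.2 to 21.6. None of these 3 was among the calls. Mylk, the myosin light chain kinase, went from 104.3, 101.6 and 90.7 CPM to 119.9, 119.3 and 127.9 (1.24-fold, adjusted p = 0.00898). It lost its call without replicate 3 of either group (up to 0.0555), and the list held between 0 and 2 rises without any 1 compared library. Of 26 antioxidant genes, Nfe2l2, which encodes NRF2, its inhibitor Keap1 and the metallothionein Mt2 rose (11.5%, log2 0.28, 0.30 and 0.45) and Sod3, an extracellular superoxide dismutase, fell (log2 -0.31). Of 20 chromatin genes, the Polycomb subunit Bmi1 and the DNA methyltransferase Dnmt3a rose (10%, log2 0.35 and 0.27). The rises in each of these 2 lists numbered 0 to 2 without any 1 compared library.

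Of 28 Notch and Wnt pathway genes, 3 fell (Sfrp2, Jag1 and Notch3, 10.7%) and 1 rose (3.57%). The rise was in Dkk3, a secreted protein of the Dickkopf family, at 57.2, 71.1 and 56.3 CPM against 79.7, 83.4 and 66.9, with overlap (1.246-fold, adjusted p = 0.041). Its call was lost without any 1 of 4 compared libraries, replicates 1 and 2 of the double knockdown and 1 and 3 of shOpa1 (up to 0.216). Notch3, a receptor, fell 1.2-fold and lost its call without replicates 2 or 3 of the double knockdown or 1 or 2 of shOpa1 (up to 0.146).

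Sfrp2, a secreted Wnt modulator made by fibroblasts, was lower in every alternative. It was at 25.6, 25.9 and 25.04 CPM in shOpa1 and 8.38, 9.69 and 10.9 in the double knockdown (2.65-fold lower, log2 -1.40 ± 0.18, adjusted p = 4.1e-05). The shNT mean was 7.01 CPM and the shMtfr1l mean 2.22. Jag1, a Notch ligand, went from 130.6, 132.8 and 132.8 CPM to 106.2, 85.6 and 91.4 (1.4-fold lower, adjusted p = 9.02e-04, and 0.0635 at most without a whole replicate number). Maob, monoamine oxidase B of the outer mitochondrial membrane, went from 30.3, 26.3 and 32.8 CPM to 17.7, 16.3 and 15.7 (1.8-fold lower, adjusted p = 4.88e-04), against 15.1 in shNT. Dlk1, a Notch-like inhibitor of differentiation, fell 2.29-fold and Hephl1, a copper ferroxidase, 2.21-fold, and each lost its call without 1 whole replicate number (adjusted p = 0.0879 and 0.0891). Mrap2, an accessory protein of melanocortin receptors, rose from 2.57, 2.33 and 1.29 CPM to 5.35, 4.44 and 5.24 (2.42-fold, adjusted p = 0.00133), below the shNT mean of 12.6. The groups of all 6 genes were apart, which the rule for the largest changes required of all but Jag1.

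A few genes went opposite ways with and without shOpa1. Galnt16, a transferase that starts O-linked glycans, was at 66.3, 73.7 and 60.7 CPM in shOpa1 and 48.8, 46.4 and 48.7 in the double knockdown (1.4-fold lower, adjusted p = 0.00565), whereas it rose with Opa1 intact, from a mean of 16.5 CPM in shNT to 33.6 in shMtfr1l. The effects differed by log2 -1.50 (adjusted p = 4.78e-06), and the fall itself lost its call without some whole replicate numbers (adjusted p up to 0.122). Nacc2, a transcriptional repressor, went from 32.2, 32.5 and 31.3 CPM to 49.7, 43.6 and 45.4 (1.45-fold higher, adjusted p = 3.42e-04), and from 78.95 to 58.3 with Opa1 intact (difference 0.97, adjusted p = 4.49e-05). Cdh3, placental cadherin, moved like Nacc2, with log2 0.49 here and -0.75 there (difference 1.24, adjusted p = 8.18e-05). The rise of Cdh3 lost its call without replicate 3 of the double knockdown or replicate 2 of shOpa1 (adjusted p up to 0.0836). Svep1, an adhesion protein of the matrix, and Serpina3h, a secreted protease inhibitor, both fell here (1.39-fold and 1.22-fold) in every alternative. Svep1 was not called with Opa1 intact (log2 0.15, difference -0.63), while Serpina3h fell more there (log2 -0.76, difference 0.47).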

How the data were processed

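The deposited table of the second set holds raw counts per gene that the authors made with featureCounts 2.0.6 on UCSC mm10 gene models, per the file headers, with the reverse-strand setting and each mate of a pair counted by itself. Of the counts from 1 to 20, 65.86% were even. For the aligner, none is named in the sources used here. The other set, 6 samples, is not analysed here.

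Here edgeR 4.0.16 (R 4.3.3) was run on all 12 libraries with TMM scaling, filterByExpr and its quasi-likelihood test, with 4 groups and 8 residual degrees of freedom, and the Benjamini-Hochberg adjustment covered all 14162 genes. DESeq2 1.42.0 and limma 3.58.1 (voom) were alternatives, and the procedure was tested on simulated data. Standard errors follow each log2 value after ±. No 2 libraries of a group agreed within sampling noise (chi-square per gene 5.344 to 10.16).

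Named genes were Mtfr1l and Opa1, the 12 largest called rises and falls at 2 CPM or more whose groups do not overlap, up to 6 called members per list by adjusted p, every called gene of the fusion, cristae and vector lists, up to 8 by the difference of effects, and up to 6 with opposite calls. For the largest rises and falls, groups without overlap are thus part of the choice. Genes outside this rule were chosen after their values were seen. The comparison and the 33 gene lists were chosen with earlier results of these data known.

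The titles tie replicate numbers to days, which pairs the libraries by the labels. Deviations of same-numbered libraries correlated at -0.007, 0.055 and 0.016 between the double knockdown and shOpa1, and at -0.005, -0.026 and 0.122 between shMtfr1l and shNT. Promoters are from RefSeq (GRCm38.p6). A few genes of the lists are counted but not reported by name here.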

Additional observations from a re-analysis of the deposited data

Results flagged for a closer look

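For 405 genes (2.86% of those tested) the log2 change from shOpa1 to the double knockdown differed from that from shNT to shMtfr1l. The test was an interaction test in edgeR (adjusted p under 0.05), and 60 chosen genes of the 405 are listed here. The values are the first change minus the second. The depth of the Mtfr1l knockdown and the change of Opa1 also differed between these comparisons, and their parts cannot be told apart. The 60 genes are the named ones plus members of the sarcomere, calcium, fibroblast, matrix and inflammation lists, the latter chosen after their values were seen. The difference was called in all 24 alternatives for 20 of them, lost in at least 1 for 40 and reversed for 0.

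For the targets it was 0.78 for Mtfr1l and 0.84 for Opa1. The cardiac genes given here had differences below 0: -0.76 for Myh6, -0.91 for Tnni3, -0.59 for Myom1, -0.82 for Csrp3, -0.97 for Synpo2l, -0.33 for Cryab, -0.27 for Des, -0.39 for Ankrd1, -0.61 for Sln, -0.41 for Atp2a2 and -0.84 for Trdn. Mb, myoglobin, which is outside the 60, stood at -1.22. The difference was also called for 1 gene of the sodium, potassium and pacemaker channels and for 1 cardiac transcription regulator, which are not reported by name here.

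Fibroblast genes had differences above 0: 0.43 for Tcf21, 0.55 for Lum, 0.27 for Gsn, 0.49 for Mfap4, 0.38 for Fbln2, 0.57 for S100a4 and 0.47 for Dpep1. Matrix genes had both signs. Those above 0 were Col3a1 at 0.31, Col11a1 at 0.44, Col18a1 at 0.52, Lox at 0.69, Loxl2 at 0.29, Loxl4 at 0.66, Sparc at 0.18, Wisp1 at 0.29, Wisp2 at 0.31, Bgn at 0.21, Fmod at 0.68, Lama4 at 0.42, Timp1 at 0.69, Timp3 at 0.26, Dse at 0.61 and Tgfbi at 0.90. Those below 0 were Eln at -0.59, Ctgf at -0.33, Col8a1 at -0.40, Svep1 at -0.63 and Adamts1 at -0.65.

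Inflammation genes were above 0: 3.81 for Saa3, 0.81 for C3, 0.45 for C1ra, 0.73 for Cxcl16, 0.76 for Vcam1, 0.60 for Icam1 and 0.73 for Relb. Of the others, Ifi27l2a was at 1.2, Slc30a2 at 1.46, Mt2 at 0.63, Sod3 at 0.40, Nacc2 at 0.97, Cdh3 at 1.24 and Serpina3h at 0.47. Galnt16 was at -1.50, Flt1 at -0.60, Hsph1 at -0.45, Adm at -0.41 and Ei24 at -0.31.

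Under the replicate block the difference was not called for 9 of the 60: Opa1 (adjusted p = 0.0552), Slc30a2 (0.0654), Sln (0.0895), Des (0.0611), Ei24 (0.056), Sod3 (0.0617), Gsn (0.0585), Dpep1 (0.0574) and Bgn (0.053). Counting the block, Opa1 lost it in 12 of the 24 alternatives and Sln in 17.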

How the results depend on the processing

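The counts of called genes depended on single libraries more than on scaling. Without any 1 library, or without 1 replicate number of all groups, the count of higher genes ran from 65 to 333 (290 with all libraries), that of lower genes from 67 to 343 (307), that of differing effects from 113 to 453 (405) and that of shared calls in the same direction from 65 to 219 (226). The lowest values came without replicate 2 of every group, a fit that drops a library from each of the 4 groups and so has fewer residual degrees of freedom. It called 132 genes, higher and lower together. Without any 1 compared library 301 to 561 were called, and 578 with DESeq2 size factors and 596 with upper quartile scaling. With no filter on low counts 576 genes were higher, 448 lower and 719 differed in effect, and DESeq2 gave 648 for the difference. With the replicate block, 213 genes were higher, 241 lower, 296 differed in effect and 190 were shared. The block ended the call of 23 of the 111 named genes, among them those given with a blocked value in the text and Ngfr, Atxn7l2, Myh2, Tram1l1, Mycn, Synpo2, Scd2, Mki67, Perp, Rps3, Rps20, Rps14 and Adamts1. It ended no call of the other named genes. No named gene changed direction in the 25 alternatives, 83 lost the call in at least 1 and 28 kept it in all. The robust quasi-likelihood fit and the leaving out of shMtfr1l and shNT libraries were chosen after seeing the data. Fits without 1 library pool the spread over groups. A difference of effects could not be computed from the 6 libraries alone.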
